A study of Oryza sativa Japonica Group with 4 samples.

Results

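The genes described here encode the Polycomb and DNA methylation machinery of rice, and their transcript levels were followed in young panicles in which the transcription factor gene OsbZIP47 was targeted by RNA interference. The 10 genes were taken by identifier from the deposited count table of 37862 genes. Of these, 5 belong to the Polycomb group (CLF, iEZ1, EMF2a, EMF2b and FIE2) and 5 to DNA methylation (MET1a, MET1b, CMT3a, DRM2 and DDM1). All 10 passed the filter on low counts that left 25289 genes for testing.

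The control group (WT) was the japonica cultivar TP309, and the OsbZIP47KD group was a single transgenic line in the same background. That line, dsRNAi#14, carried a hairpin against the 3′ untranslated region of OsbZIP47 driven by the maize ubiquitin promoter, which is active in most tissues, so both OsbZIP47KD libraries represent a single transformation event. Each group had 2 libraries, each from pooled panicles of 0.1 to 0.5 cm. No treatment or plant age distinguished the groups in the labels. Panicles were staged by length, so plant age may still have differed between the groups. RNA was depleted of ribosomal RNA and sequenced in pairs.

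The count totals were 5611969 and 5100799 in WT and 3839165 and 4063036 in OsbZIP47KD, so that a single count was worth between 0.189 and 0.261 CPM (the count relative to the library's scaled total). All CPM below were scaled by the trimmed mean of M values, and replicate 1 is given before replicate 2. OsbZIP47 itself (Os06g0265400) had 88.8 and 51.9 CPM in WT and 262 and 219 CPM in OsbZIP47KD, a log2 fold change of 1.77 with a standard error (SE) of 0.25 and an adjusted p of 0.0141 by edgeR's quasi-likelihood test with Benjamini-Hochberg adjustment. The targeted gene was therefore counted higher, not lower, in the libraries labelled OsbZIP47KD. Hairpin transcripts share sequence with the gene and can be counted with it, so its level does not check the labels, and every direction below is for the libraries as labelled. The young panicle marker APO1, an F-box gene of panicle meristems, had 8.29 and 12.9 CPM in WT and 24.0 and 35.3 CPM in OsbZIP47KD. Both leaf markers kept, the chlorophyll-binding protein genes CAB1R and CAB2R, were lower in OsbZIP47KD without overlap. Their summed level was 136 and 191 CPM in WT and 48.3 and 67.3 CPM in OsbZIP47KD. The study had listed these 3 markers as changed in the same libraries, so their differences were fixed by that choice and are given as a description. Planned markers outside that list were left out, and APO1 was the only young panicle marker kept of several planned. No panicle marker chosen apart from its outcome is therefore given, and APO1 alone does not measure the amount of panicle tissue. Among the markers left out, the leaf marker PSBO (Os01g0501800) had a log2 fold change of −0.28 (edgeR adjusted p = 0.665). None of the 3 listed markers was at 0 in any library. The part of these markers in the values below was not tested, and in pooled tissue fewer cells of a type cannot be told apart from less RNA per cell.

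Polycomb proteins keep developmental genes silent. The Polycomb repressive complex methylates histone H3 at a lysine of its tail through an E(z)-type catalytic subunit, with a zinc finger subunit of the EMF2 type and a WD40 subunit of the FIE type in the same complex. DNA methylation is kept at CG sites by MET1 enzymes after replication and at CHG sites by chromomethylases. It is placed on unmethylated DNA by DRM enzymes that small RNAs guide, and chromatin remodelling by DDM1 gives these enzymes access to packed DNA. Both systems act on flowering and on floral organ identity in plants, and in rice EMF2b is required for normal floral organs.

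None of the 10 genes passed edgeR's quasi-likelihood test between OsbZIP47KD and WT panicles (threshold 0.05 after Benjamini-Hochberg adjustment over all 25289 genes). The background was low: 0.649% of all genes tested were called. As shares of all genes tested, 0.127% were called higher and 0.522% lower in OsbZIP47KD. At an unadjusted p under 0.05, 2 of the 10 were lower, the CG methyltransferase gene MET1b and the remodeller gene DDM1, against 7.27% of all genes tested. No member was higher at that level, against 6.85% of all genes. DESeq2, edgeR's exact and likelihood ratio tests and limma also called 0 of the 10. The OsbZIP47KD mean ranged from 67.9% of the WT mean for DDM1 to 117% for MET1a.

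**Figure D1:**
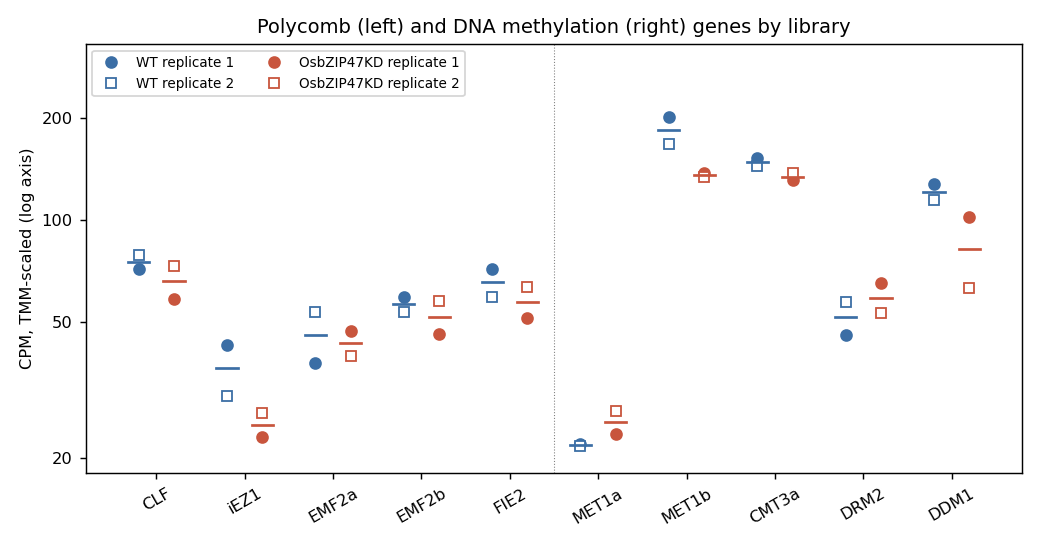
Scaled CPM (log axis) of the 10 genes in each library, with Polycomb genes left of the dotted line and DNA methylation genes right of it; filled circles are replicate 1, open squares replicate 2 and bars the mean of each group. The groups do not overlap for iEZ1, MET1a, MET1b, CMT3a and DDM1 and overlap for the other 5 genes.

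Among the catalytic subunits, CLF (Os06g0275500, chromosome 6), named after CURLY LEAF of Arabidopsis, had 71.6 and 79.1 CPM in WT and 58.5 and 73.5 CPM in OsbZIP47KD. Replicate 2 of OsbZIP47KD lay within the WT range, so the groups overlapped. The mean of 66.0 ± 10.6 CPM (SD, n = 2) was 87.5% of the WT mean of 75.4 ± 5.28 CPM (SD, n = 2). The log2 fold change was −0.19, SE 0.21, with an adjusted p of 0.743 by edgeR's quasi-likelihood test. The second E(z)-type gene, iEZ1 (Os03g0307800, chromosome 3), had 43.0 and 30.4 CPM in WT and 23.0 and 27 CPM in OsbZIP47KD. Both OsbZIP47KD libraries were below both WT libraries, and the WT libraries lay farther apart than the OsbZIP47KD libraries. Its mean was 36.7 ± 8.89 CPM in WT and 25 ± 2.81 CPM in OsbZIP47KD (SD, n = 2 each), a difference that did not pass the test (log2 fold change −0.55, SE 0.28, edgeR adjusted p = 0.408). The size of the estimate depended on which WT library was kept: it was −0.30 without WT replicate 1 and −0.83 without WT replicate 2.

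The EMF2 genes encode the zinc finger subunit. EMF2a (Os04g0162100, chromosome 4) had 38.1 and 53.7 CPM in WT and 47.3 and 39.8 CPM in OsbZIP47KD. Both OsbZIP47KD libraries lay between the WT libraries. The log2 fold change was −0.07, SE 0.26, with an adjusted p of 0.930 (edgeR quasi-likelihood test), and its sign turned with the scaling, to 0.01 with upper-quartile scaling. EMF2b (Os09g0306800, chromosome 9), which acts in floral organ development, had 59.4 and 53.7 CPM in WT and 46.2 and 57.7 CPM in OsbZIP47KD. Its groups overlapped through OsbZIP47KD replicate 2, and the log2 fold change was −0.12, SE 0.23 (edgeR adjusted p = 0.864).

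FIE2 (Os08g0137100, chromosome 8) encodes the WD40 subunit that bridges the complex. It had 71.6 and 59.6 CPM in WT and 51.7 and 63.5 CPM in OsbZIP47KD. The groups overlapped, and the mean of 57.6 ± 8.31 CPM was 87.7% of the WT mean of 65.6 ± 8.49 CPM (SD, n = 2 each). The log2 fold change was −0.19, SE 0.22, with an adjusted p of 0.763 by edgeR's quasi-likelihood test. Over the 5 Polycomb genes the median log2 fold change was −0.19, and their summed level was 284 and 276 CPM in WT and 227 and 261 CPM in OsbZIP47KD. With this scaling the sum was lower in both OsbZIP47KD libraries than in either WT library. OsbZIP47KD replicate 2, at 261 CPM, was close to the 276 CPM of WT replicate 2, and this separation depends on the scaling.

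The CG methyltransferase genes differed in the direction of their estimates. MET1a (Os03g0798300, chromosome 3) had 21.9 and 21.7 CPM in WT and 23.5 and 27.4 CPM in OsbZIP47KD. The OsbZIP47KD libraries were both higher, with a mean of 25.5 ± 2.78 CPM against 21.8 ± 0.145 CPM (SD, n = 2 each) and a log2 fold change of 0.23, SE 0.29 (edgeR adjusted p = 0.783). MET1b (Os07g0182900, chromosome 7), the main maintenance enzyme gene in rice, had 201 and 167 CPM in WT and 138 and 134 CPM in OsbZIP47KD. Both OsbZIP47KD libraries were below WT and close to each other. Its mean of 136 ± 3.39 CPM was 74.1% of the WT mean of 184 ± 24.1 CPM (SD, n = 2 each). The log2 fold change of −0.43, SE 0.18, had a 95% interval from −0.83 to −0.04 and an unadjusted p of 0.0349, but its adjusted p was 0.312 by edgeR's quasi-likelihood test.

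CMT3a (Os10g0104900, chromosome 10), a chromomethylase of CHG sites, had 152 and 144 CPM in WT and 131 and 138 CPM in OsbZIP47KD. The groups did not overlap with this scaling, yet the difference was small: 134 ± 5.17 against 148 ± 5.95 CPM (SD, n = 2 each), or 90.7% of WT. The log2 fold change was −0.14, SE 0.18 (edgeR adjusted p = 0.780). The separation of the groups depends on the scaling, and the estimate was −0.06 with library totals. DRM2 (Os03g0110800, chromosome 3), the methyltransferase that small RNAs guide to new sites, had 46.0 and 57.6 CPM in WT and 65.3 and 53.2 CPM in OsbZIP47KD. Here the groups overlapped, and the log2 fold change of 0.19, SE 0.23 (edgeR adjusted p = 0.769) turned to −0.02 without OsbZIP47KD replicate 1.

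DDM1 (Os09g0442700, chromosome 9), a chromatin remodeller, had 128 and 115 CPM in WT and 102 and 63.0 CPM in OsbZIP47KD. Both OsbZIP47KD libraries were below WT, and replicate 2 was far below replicate 1. The mean of 82.3 ± 27.3 CPM was 67.9% of the WT mean of 121 ± 9.29 CPM (SD, n = 2 each). Its log2 fold change of −0.56, SE 0.23, had a 95% interval from −1.07 to −0.05 and an unadjusted p of 0.0349, and the adjusted p was 0.312 by edgeR's quasi-likelihood test. The size depended on which OsbZIP47KD library was kept: it was −1 without replicate 1 (adjusted p = 0.121, edgeR) and −0.26 without replicate 2 (adjusted p = 0.737, edgeR). The 5 DNA methylation genes together summed to 549 and 505 CPM in WT and 460 and 415 CPM in OsbZIP47KD, with a median log2 fold change of −0.14 and a range from −0.56 to 0.23.

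**Figure D2:**
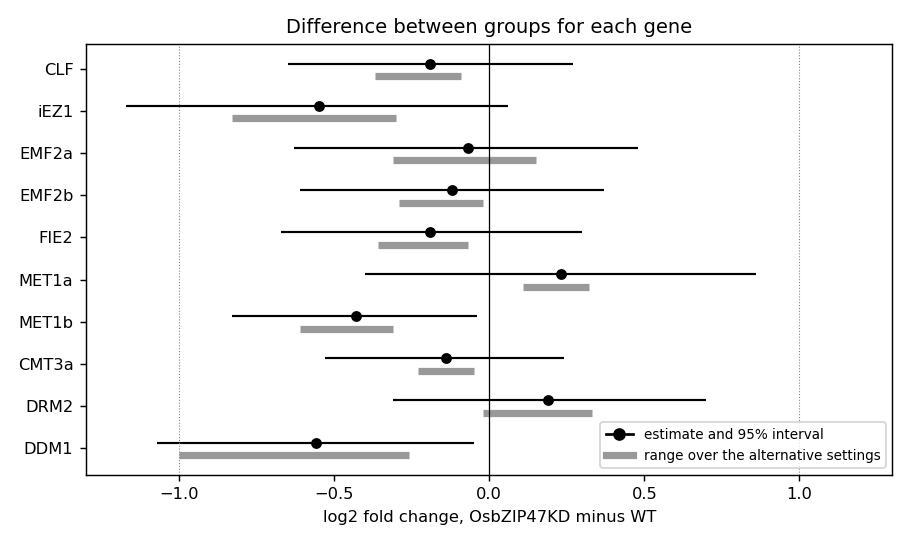
Log2 fold change of OsbZIP47KD over WT for each gene, with its 95% interval (thin lines) and the range of the estimate over 15 alternative settings (grey bars). Only the intervals of MET1b and DDM1 leave out 0, and the grey bars of EMF2a and DRM2 cross it.

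The estimates were below 0 for 8 of the 10 genes, against 48.7% of all genes tested. With no overlap of the groups, 4 genes were lower in OsbZIP47KD (iEZ1, MET1b, CMT3a and DDM1), against 22.8% of all genes tested. By the same measure 1 was higher (MET1a), against 23.0%. For CMT3a the separation depends on the scaling. The median log2 fold change of the 10 was −0.16. It was 0.02 over all genes tested and −0.11 over the 9490 genes whose mean level fell within the range of the 10, from 23.6 to 160 CPM. Genes of this abundance thus also had a median below 0, with an interquartile range from −0.35 to 0.13.

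The precision of these estimates was better than that of the median gene tested. Their median SE on the log2 scale was 0.23, against 0.36 over all genes tested and 0.25 among those of like abundance. For 8 of the 10 genes, the 95% interval lay within 1 log2 unit of 0 in both directions. The intervals of iEZ1 and DDM1 reached below −1, to −1.17 and −1.07, so for these genes the interval still held a decrease of 1 log2 unit.

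**Figure D3:**
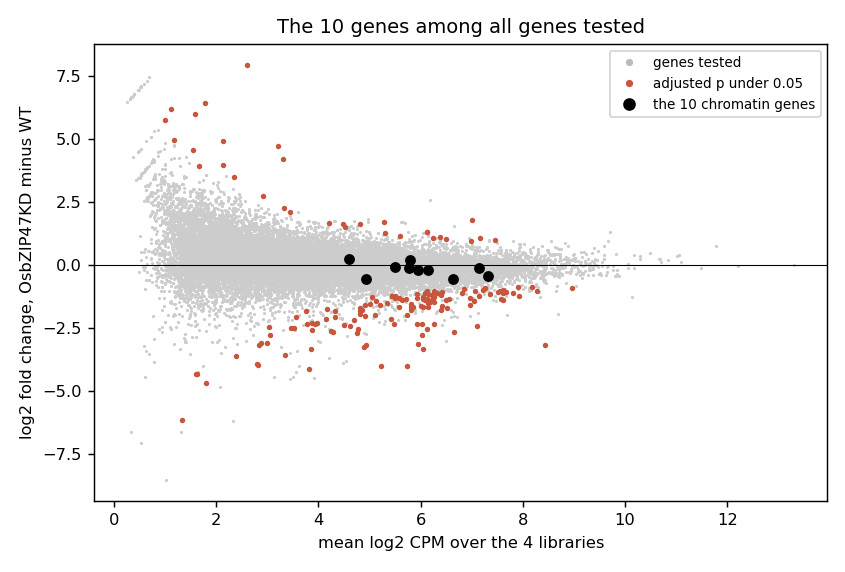
Log2 fold change of OsbZIP47KD over WT against mean log2 CPM over the 4 libraries for all 25289 genes tested (grey), with the 164 called at an adjusted p under 0.05 in red and the 10 chromatin genes in black. The black points lie between −0.56 and 0.23, within the grey band of uncalled genes.

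Replicates differed by more than counting error in 10 of the 20 replicate pairs of the 10 genes, 5 in WT and 5 in OsbZIP47KD. The same count is not given for other genes, so it is not read as a trait of these 10. The widest was DDM1 in OsbZIP47KD, where replicate 1 was 1.61 times replicate 2 (95% counting interval 1.38 to 1.89). In WT, iEZ1 was 1.41 times higher in replicate 1 (1.15 to 1.75), whereas EMF2a in replicate 1 was at 0.710 of replicate 2 (0.588 to 0.855). MET1a and CMT3a differed by no more than counting error in either group. The median gap between replicates of the 10 genes was 0.21 in WT and 0.27 in OsbZIP47KD on the log2 scale, against 0.23 and 0.26 for genes of like abundance.

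The catalytic subunit, the zinc finger subunit and the MET1 enzyme are each encoded by a pair of the 10 genes, and the share of each pair's counts that fell to the first gene does not depend on library scaling. MET1a made up 9.83% and 11.5% of the MET1 counts in WT and 14.5% and 17% in OsbZIP47KD. The 95% exact binomial intervals, which cover counting error only, were 8.19 to 11.7%, 9.55 to 13.7%, 11.8 to 17.5% and 14.3 to 20.1% in the same order. The groups did not overlap, and the mean log2 ratio of MET1a to MET1b was 0.65 higher in OsbZIP47KD. With 2 libraries a group, the exact two-sided permutation test cannot go below p = 0.333, the value found here. Among the other pairs, CLF made up 62.5% and 72.2% of the counts of CLF and iEZ1 in WT and 71.8% and 73.2% in OsbZIP47KD, so the groups overlapped (exact permutation p = 0.667). EMF2a made up 39.1% and 50% of the EMF2 counts in WT and 50.6% and 40.8% in OsbZIP47KD. These EMF2 shares overlapped too (exact permutation p = 0.667), and adjusted over the 3 pairs all p were 0.667.

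**Figure D4:**
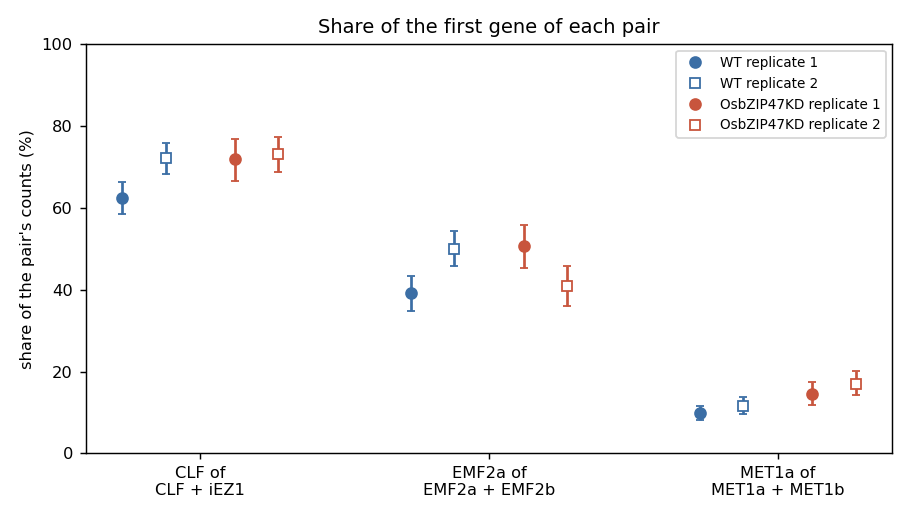
Share (%) of each pair's counts that came from the first gene, by library, with 95% exact binomial intervals that cover counting error only. The MET1a share is higher in both OsbZIP47KD libraries (14.5% and 17%) than in WT (9.83% and 11.5%), and the other pairs overlap between groups.

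Within the counts of the 10 genes, MET1b took 24.1% and 21.3% of their counts in WT and 20.2% and 19.7% in OsbZIP47KD. MET1a took 2.63% and 2.77% in WT and 3.42% and 4.05% in OsbZIP47KD. DRM2 took 5.53% and 7.38% in WT and 9.51% and 7.86% in OsbZIP47KD. These shares sum to a fixed total in each library, so a low share of a gene raises those of the others, and they are given as a description with no test. The groups overlapped for 6 of the 10 genes by this measure, and without overlap 3 were higher and 1 was lower in OsbZIP47KD. By CPM, a different measure, 23.0% of all genes tested were higher and 22.8% lower without overlap. Separation of 2 against 2 libraries is thus common and is no result about these genes. For CMT3a the shares were 18.3% and 18.4% in WT and 19.1% and 20.4% in OsbZIP47KD. DDM1 overlapped because its 14.8% in OsbZIP47KD replicate 1 lay between the WT shares of 15.4% and 14.7%, while replicate 2 was at 9.31%. The 5 Polycomb genes together held 34.1% and 35.4% in WT and 33.0% and 38.6% in OsbZIP47KD, with the WT values between the OsbZIP47KD values.

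**Figure D5:**
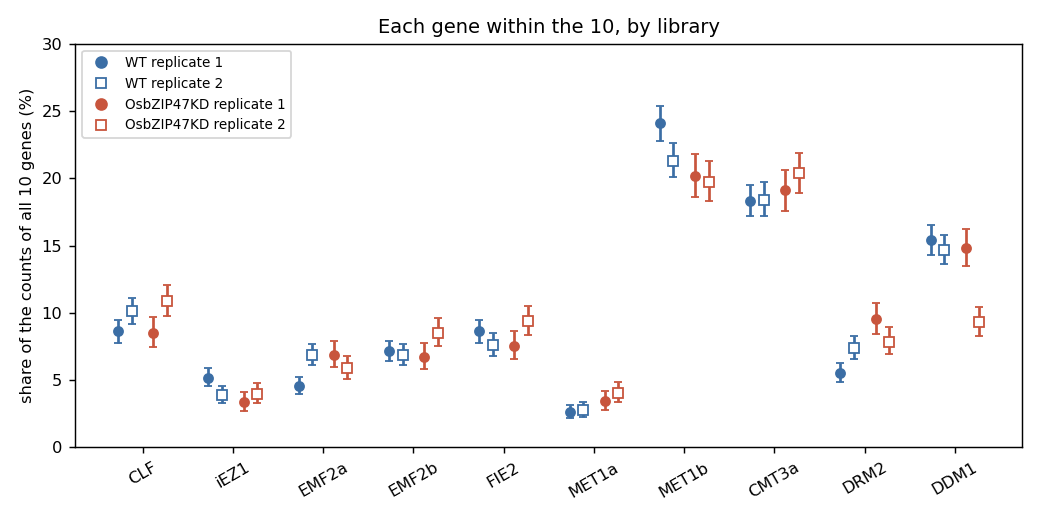
Share (%) of the summed counts of the 10 genes that each gene took in each library, with 95% exact binomial intervals that cover counting error only. The share of DDM1 is 14.7 to 15.4% in 3 libraries and 9.31% in OsbZIP47KD replicate 2, and that of MET1b is lower in both OsbZIP47KD libraries.

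Likeness of pattern was taken as the root mean square difference between centred log2 levels over the 4 libraries, where 0 is an identical pattern. EMF2b and FIE2 were the most alike at 0.05. CMT3a and CLF also lay nearest to EMF2b, at 0.09 and 0.11, as did MET1a at 0.18. Polycomb genes also lay far apart: the gene farthest from EMF2a was iEZ1, at 0.46. The catalytic subunit gene iEZ1 and MET1b lay nearest to each other at 0.14, and so did EMF2a and DRM2. DDM1 stood farthest from the rest, with its nearest gene MET1b at 0.24 and MET1a at 0.52. These are descriptions over 4 libraries that share their depth and tissue, with no test.

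Of 4 related genes outside the 10 that the study's gene list annotated, none passed the test. The study had chosen all 4 on these same samples, so they are no independent evidence. The further chromomethylase gene CMT3b (Os03g0226901) was nearly silent, with 10 and 2 counts in WT and 16 and 22 counts in OsbZIP47KD. Its log2 fold change was 2.01, SE 0.88 (edgeR adjusted p = 0.332). The remaining 3 act in the licensing and start of DNA replication, the step after which MET1 enzymes work. ORC5 (origin recognition) was counted 83 and 59 times in the WT libraries and 72 and 164 times in OsbZIP47KD (log2 fold change 1.08, SE 0.38, edgeR adjusted p = 0.232). CDC6, the loading factor, reached 10 and 31 counts in the WT libraries against 37 and 57 in OsbZIP47KD (log2 fold change 1.53, SE 0.59, edgeR adjusted p = 0.268). CDC45-1, of the replicative helicase, was counted 145 and 47 times in the WT libraries and 42 and 20 times in OsbZIP47KD (log2 fold change −1.23, SE 0.58, edgeR adjusted p = 0.384). These replication genes thus had estimates of both signs.

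In 4 of the 10 rows, an adjacent gene identifier carried counts within 1.5 times those of the member in every library, against 17.5% of all genes tested and 22.7% of those of like abundance; this was examined after the values were seen. DRM2 had 244, 290, 250 and 223 counts, in the order of both WT and then both OsbZIP47KD libraries, and the adjacent identifier Os03g0110700 had 242, 283, 243 and 208. EMF2b had 315, 270, 177 and 242 counts beside 289, 248, 165 and 216 for Os09g0307050. CLF and EMF2a had such neighbours too, at 0.772 to 0.829 and 0.841 to 0.921 of their counts. Whether the counting used strand is not given in the sources used here, so the values of these 4 genes may include reads shared with the neighbouring annotation, and the 2 sources cannot be told apart.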

How the data were processed

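Transcripts of 4 rice panicle libraries, 2 per group, were measured by RNA-seq. The authors aligned reads with STAR 2.5.3a to the RAP-DB genome and deposited raw counts per gene; the counting program, its strand setting and the annotation release are not given in the sources used here. The authors also deposited a normalized table of scores (values rounded to whole numbers), which equals the counts times a single factor per library for 29532 genes. The counts were tested in edgeR 4.0.16 (R 4.3.3) after filterByExpr (minimum count 10, minimum total 15), with scaling by the trimmed mean of M values, a robust quasi-likelihood fit of OsbZIP47KD against WT and Benjamini-Hochberg adjustment over 25289 genes at 0.05. The common biological coefficient of variation was 0.258. DESeq2 1.42.0 and limma 3.58.1 (on log2 of the deposited normalized values plus 1) were alternatives, with other scalings, filters and left-out libraries. All 10 genes were named in the text. They and the lists were chosen with earlier results of these data known. RefSeq assembly ASM3414082v1 matched 4 of the 10 by symbol and chromosome (MET1a, MET1b, CMT3a and DRM2). The authors call the libraries biological replicates. That they came from separate plants was not stated, so p-values measure the spread between these libraries.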

Additional observations from a re-analysis of the deposited data

How the results depend on the processing

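Over 15 alternatives, 0 of the 150 values of the 10 genes reached an adjusted p under 0.05. The lowest adjusted p were 0.121 for DDM1 (without OsbZIP47KD replicate 1), 0.228 for MET1b (no filter) and 0.276 for iEZ1 (without WT replicate 2), all by edgeR's quasi-likelihood test. CLF, iEZ1, EMF2b, FIE2, MET1a, MET1b, CMT3a and DDM1 kept their direction in all 15. The log2 fold change of EMF2a turned to 0.01 with upper-quartile scaling and 0.00 with library totals, and ranged from −0.31 to 0.15 over the left-out libraries (0.15 without WT replicate 2, 0.04 without OsbZIP47KD replicate 2). That of DRM2 ranged from −0.02 to 0.33 over them. The median of all genes moved from 0.02 to 0.11 with upper-quartile scaling.

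The number of all genes called, 164, was 787 with no filter, 437 by DESeq2, 726 by edgeR's exact test, 843 by its likelihood ratio test and 13 by limma, and ranged from 70 to 1232 over the left-out libraries. The split was 32 higher and 132 lower, against 52 and 121 with library totals, 324 and 402 by the exact test and 411 and 432 by the likelihood ratio test. Replication genes called ranged from 0 to 2 over the left-out libraries. With 1 library left in a group, its spread is taken from the other group's libraries.

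Same-numbered replicates shared little deviation between the groups (correlation 0.0383 across 25289 genes). This cannot show whether the libraries were prepared in pairs. A fit with the replicate block called 596 genes and 0 of the 10. The MET1, CLF and EMF2 shares per coding length were not run. With 2 libraries a group, from a single transgenic line, differences of the size seen for iEZ1, MET1b and DDM1 did not pass the threshold. The causes of these differences between settings were not tested.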
